A study of Mus musculus with 59 samples.

Results

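Transcripts of 9 genes that are characteristic of B cells, Cd79a, Cd79b, Ms4a1, Cd22, Blk, Pax5, Cr2, Pou2af1 and Fcrla, were followed in lung, liver and forestomach of mice given benzo(b)fluoranthene (BbF), a polycyclic aromatic hydrocarbon that activates the aryl hydrocarbon receptor (AhR). The members were taken from the arrays by the RefSeq accession of each probe, which gave 11 probes for these 9 of 37163 genes or transcripts. Pax5 and Cr2 each had 2 probes and the other members had 1. All animals were adult male Muta™Mouse, about 16 weeks old per the labels, which carry a bacterial lacZ transgene for mutation assays in every group, vehicle included. They received olive oil alone (vehicle, dose 0) or BbF in olive oil at 25 (low), 50 (medium) or 100 (high) mg/kg-bw/day by oral gavage for 28 days, and were killed 72 hours after dosing ended. Liver and forestomach were represented by 20 mice with 1 array each and lung by 19, and the lung of low-dose mouse 7 was not analysed here. The 12 groups therefore held 5 mice each, with 4 in low-dose lung, on 59 arrays. Mice 1 to 5 were vehicle, 6 to 10 low, 11 to 15 medium and 16 to 20 high, and a number is the same animal in every tissue. BbF is the compound in the sample titles and the description of treatment, whereas benz(a)anthracene is written in a further label and in the series design. The doses are those of BbF, and BbF is used here.

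B cells carry an antibody molecule on their surface as antigen receptor. The proteins encoded by Cd79a and Cd79b pair beside it and carry the signal into the cell, where Src-family kinases such as Blk act early. Cr2 encodes a complement receptor that lowers the threshold of the response, whereas Cd22 encodes a lectin that restrains it. Ms4a1 encodes the surface protein CD20, and Fcrla encodes an intracellular Fc receptor-like protein of B cells. Pax5 is the transcription factor that commits cells to the lineage, and Pou2af1 encodes a coactivator that joins the octamer-binding factors Oct1 and Oct2 on B-cell promoters and is needed for germinal centres. In healthy lung and liver, B cells are scattered among the resident cells and in the blood left in the tissue, and follicles that form near airways are sites where they gather. Follicular dendritic cells also express Cr2.

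Each value is a log2 ratio, log2(Cy5/Cy3), of the tissue RNA (Cy5) over a reference RNA pooled from mouse cell lines (Cy3) on the same array, after loess normalization of the array. It states a level relative to that reference, so that the ratios of one gene can be compared between arrays but levels of different genes cannot. The number of arrays limits the precision. The brightest probe stood for each gene. A gene was called changed when limma's p, adjusted over all probes by the Benjamini-Hochberg method, was no higher than 0.05 and the change reached 1.5-fold. Sftpc, a surfactant gene of lung epithelium, lay at a log2 ratio of 6.84 or above in all lungs and 0.69 or below elsewhere. Scgb1a1, a secretory gene of airways, was less restricted, with 7.84 or above in lung, 4.30 to 5.46 in forestomach and 0.16 or below in liver. Some arrays stood apart. The lung array of low-dose mouse 6 had Krt13, a keratin of stratified epithelium, at 4.17, against -0.90 at most on the other lung arrays and 4.76 at least in forestomach. The lung array of vehicle mouse 2 had Cyp1a1, the classical AhR target, at 8.39, against 2.97 at most in the other vehicle mice, while high-dose lung ranged from 5.99 to 9.38. Cyp1a1 of mouse 2 was also the highest among the vehicle mice in liver (2.84, others 0.72 at most) and in forestomach (4.39, others 1.85 at most), so the animal labelled vehicle mouse 2 stood apart in every tissue, and whether its label is right was not tested. Among the high-dose mice, 16 and 18 had Cyp1a1 at 0.24 and 0.03 in liver, against 5.03 to 6.68 in mice 17, 19 and 20. In forestomach they had 0.74 and 0.49, against 3.13 to 7.33 in mice 17, 19 and 20. The cause was not tested. The forestomach arrays of medium-dose mice 12 and 15 had Alb, a liver gene, at 4.79 and 4.30, against 3.41 at most in the other forestomachs. In liver Alb was at 5.96 or above where measured. Mouse 12 also had the highest forestomach values of Cd79b, Ms4a1 and Cr2, and a link was not tested. The 8 arrays of liver slide 3 were dim, with 12.9% of probes at most well above background in Cy5 against 37.0% at least on the other liver arrays.

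Promoter sequences of 6 of the 9 members (Cd79a, Cd22, Pax5, Cr2, Pou2af1 and Fcrla) were given in RefSeq for the assembly GRCm38.p6, each from 250 bases before the transcription start to 50 bases after it. Those of Pou2af1 (chr9:51213440-51213739, plus strand), Fcrla (chr1:170927534-170927833, minus strand), Cr2 (chr1:195176670-195176969, minus strand) and Cd22 (chr7:30878979-30879278, minus strand) are shown because the first 3 genes had the higher lung values described below and Cd22 the lower ones. Each runs 5′ to 3′ along its gene, and capitals mark the core of the AhR binding motif, GCGTG, on either strand.
Pou2af1: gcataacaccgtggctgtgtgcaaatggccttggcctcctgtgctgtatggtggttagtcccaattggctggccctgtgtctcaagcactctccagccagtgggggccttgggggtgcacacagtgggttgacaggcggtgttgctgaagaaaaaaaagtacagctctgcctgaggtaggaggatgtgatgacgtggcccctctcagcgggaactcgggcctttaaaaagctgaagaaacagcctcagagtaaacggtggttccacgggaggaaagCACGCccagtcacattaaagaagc
Fcrla: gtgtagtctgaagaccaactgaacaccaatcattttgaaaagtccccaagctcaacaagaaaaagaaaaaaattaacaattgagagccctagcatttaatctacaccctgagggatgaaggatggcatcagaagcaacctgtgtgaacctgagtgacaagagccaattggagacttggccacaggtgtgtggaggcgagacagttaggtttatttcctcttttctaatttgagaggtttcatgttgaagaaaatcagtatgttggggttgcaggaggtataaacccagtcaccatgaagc
Cr2: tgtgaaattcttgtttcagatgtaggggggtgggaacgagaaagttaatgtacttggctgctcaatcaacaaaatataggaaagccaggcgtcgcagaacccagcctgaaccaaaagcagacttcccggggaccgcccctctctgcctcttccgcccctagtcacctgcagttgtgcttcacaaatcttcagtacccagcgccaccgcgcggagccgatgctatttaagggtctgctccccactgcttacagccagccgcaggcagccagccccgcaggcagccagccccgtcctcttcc
Cd22: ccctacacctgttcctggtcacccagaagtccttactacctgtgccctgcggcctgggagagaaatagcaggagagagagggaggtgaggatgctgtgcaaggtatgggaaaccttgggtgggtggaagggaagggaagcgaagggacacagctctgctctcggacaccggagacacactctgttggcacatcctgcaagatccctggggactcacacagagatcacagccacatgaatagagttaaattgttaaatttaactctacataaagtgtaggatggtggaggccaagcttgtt
The core was found in 3 of the 6 windows, those of Pax5, Cd79a and Pou2af1, and in 32.4% of all 32851 RefSeq windows of the same length. In Pou2af1 the match begins at base 27 of the transcript and reads CACGC, the core on the other strand. The octamer ATGCAAAT or its complement ATTTGCAT was in none of the 6 windows and in 1.74% of all windows, and the motifs do not overlap each other. A match is a run of letters and no measure of binding.

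The level of the B-cell genes in unexposed tissue was examined first, in the 5 vehicle mice. Lung was called above forestomach for 6 of the 9 genes and above liver for 5, and no member was called between liver and forestomach. Cr2 had the lowest adjusted p of the members in both comparisons with lung. Its log2 ratio in lung was 3.95, 3.95, 3.14, 4.59 and 3.83 in mice 1 to 5, and in liver it was 0.58, 0.71, 0.43, 0.63 and -0.23. In forestomach it was -0.16, 0.42, 0.13, 0.27 and 0.05. Every lung value thus lay above every value of the other tissues. The mean for Cr2 was 3.89 ± 0.52 (SD, n = 5) in lung, and the differences were 3.47 (SE 0.22) from liver and 3.75 (SE 0.22) from forestomach, with adjusted p-values of 3.63e-09 and 2.03e-09 by limma.

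The genes of the receptor itself and CD20 were ordered alike. Cd79b had a mean log2 ratio of 0.71 ± 0.60 in lung (SD, n = 5), -2.82 ± 1.07 in liver and -3.72 ± 0.25 in forestomach, and Ms4a1 had 0.41 ± 0.58, -2.29 ± 1.04 and -3.16 ± 0.33. Both were called higher in lung than in liver (differences of 3.53 and 2.70) and than in forestomach (4.43 and 3.57). The Ms4a1 probe was well above background on 1 of 5 livers and 1 of 5 forestomachs, so its differences are set against a signal that was mostly near background, while Cd79b was so on 4 of 5 in each. Cd79a and Fcrla were well above background on every lung array of the vehicle mice and on no liver or forestomach array, so only a bound can be given, with the brighter group set against the dimmest signal that was well above background. By this bound Cd79a was at least 1.74-fold higher in lung than in liver and at least 1.64-fold higher than in forestomach. For Fcrla the bounds were at least 3.66-fold and at least 3.68-fold, and all 4 differences were called, with adjusted p-values between 1.55e-08 and 3.42e-05 by limma.

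Pou2af1 lay below the reference in every tissue. Its log2 ratio in the vehicle mice was -2.20 ± 0.35 in lung, -3.11 ± 1.17 in liver and -3.55 ± 0.09 in forestomach (SD, n = 5). It was called higher in lung than in forestomach (1.35, SE 0.40, adjusted p = 0.0159 by limma), a call lost without mouse 2, 3 or 4 (adjusted p = 0.0528, 0.0596 and 0.0772). Over all mice left out in turn the adjusted p ran from 6.28e-06 to 0.0772 by limma. The values did not overlap, at -2.59 to -1.70 in lung and -3.60 to -3.39 in forestomach. The fit shared 1 estimate of spread over the 3 tissues, so the wide liver values enter this SE. Pou2af1 was not called against liver (0.91, SE 0.40, adjusted p = 0.0906). The liver value of mouse 5, from the dim slide, was -1.03 against -3.77 to -3.48 in the other 4 livers. Without mouse 5 the difference from liver was 1.37 with an adjusted p of 1.83e-06 by limma, and 6 members were called in place of 5.

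Cd22 did not follow this order. Its mean log2 ratio was 0.76 ± 0.12 in lung, 0.28 ± 0.15 in liver and 0.80 ± 0.35 in forestomach (SD, n = 5), and the probe was well above background on 14 of the 15 arrays. The differences of 0.49 (SE 0.14) between lung and liver and -0.52 (SE 0.14) between liver and forestomach had adjusted p-values of 0.00994 and 0.00757 by limma but were under 1.5-fold. Blk and Pax5 were well above background on 1 lung array each, that of mouse 5, and their differences between tissues stayed under 1.5-fold. Pax5 was higher in lung by 0.49 than in forestomach and by 0.35 than in liver (adjusted p = 0.00144 and 0.012 by limma). For Blk these differences were 0.29 and 0.24 (adjusted p = 0.0319 and 0.0583). In all, 5 of the 9 genes were called between lung and liver (Cd79a, Cd79b, Ms4a1, Cr2 and Fcrla), where 29.0% of all genes were called. Between lung and forestomach 6 were called, those 5 and Pou2af1, against 22.8% of all genes, and all were higher in lung. Between liver and forestomach none was called by limma, and none had an unadjusted p under 0.05 and a change of 1.5-fold or more except Cd79b and Ms4a1, while 24.4% of all genes were called. Fewer B cells in a tissue and less of these transcripts per B cell cannot be told apart in whole tissue.

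**Figure D1:**
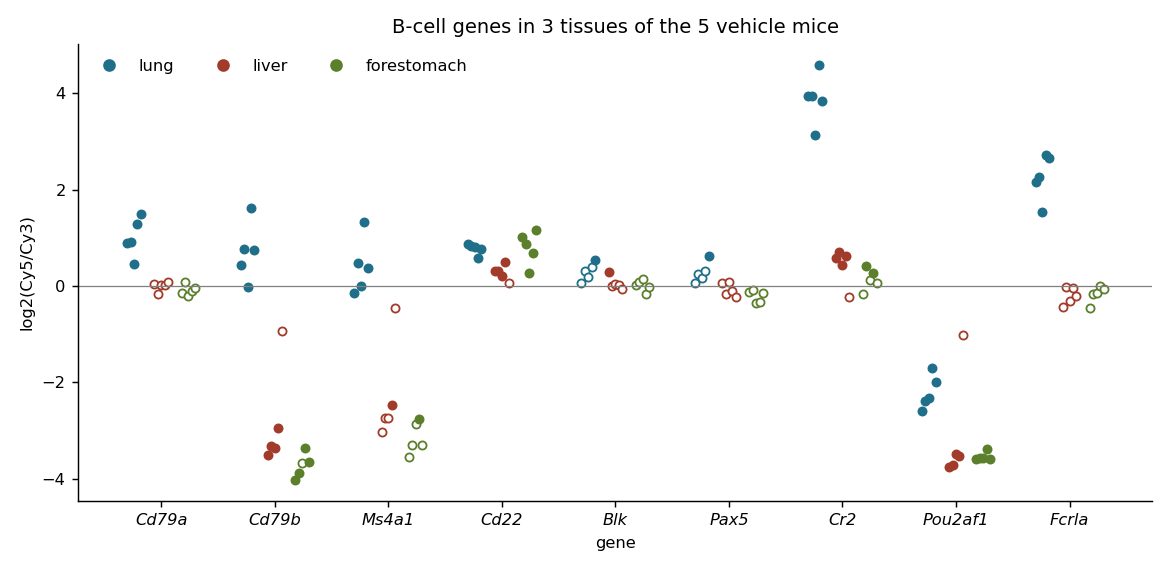
Log2(Cy5/Cy3) of the 9 B-cell genes (x axis) in lung, liver and forestomach of the 5 vehicle mice, 1 point per mouse, in the order of mice 1 to 5 from left to right; filled points are arrays on which the probe was well above background in Cy5. Lung lies above both other tissues for Cd79a, Cd79b, Ms4a1, Cr2, Pou2af1 (apart from 1 dim liver array at -1.03) and Fcrla, whereas Cd22 is at like ratios in lung and forestomach.

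The response to BbF was then examined in lung, dose by dose. Pou2af1 rose at the medium and the high dose and over the dose range, and it was the only member called by its brightest probe. In the vehicle mice its log2 ratio was -2.59, -2.38, -2.32, -1.70 and -2.0 (mice 1 to 5). In the 4 low-dose mice it was -1.86, -2.23, -1.31 and -1.76, in the medium-dose mice -1.23, -1.60, -1.40, -1.55 and -1.34, and in the high-dose mice -1.33, -1.79, -1.58, -0.99 and -1.37. All 5 medium-dose mice and 4 of 5 high-dose mice lay above the highest vehicle mouse, and the exception, mouse 17, lay just below it. The change from vehicle was 0.77 (SE 0.17, 95% interval 0.42 to 1.13, adjusted p = 0.0217 by limma), or 1.71-fold, at the medium dose. At the high dose it was 0.79 (SE 0.17, 0.43 to 1.14, adjusted p = 0.00693), or 1.73-fold. At the low dose it was 0.41 (SE 0.18, adjusted p = 0.492) and was not called. The trend over dose gave a fitted change of 0.76 (SE 0.18) from 0 to 100 mg/kg-bw/day with an adjusted p of 0.0133 by limma.

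The call of Pou2af1 at the high dose and of its trend held when each mouse was left out in turn (0.68 to 0.91 and 0.66 to 0.89). At the medium dose the adjusted p passed 0.05 without mouse 11 (0.052), mouse 15 (0.0605), mouse 1 (0.0752) or mouse 3 (0.0548). It did so too with the lung arrays of mice 2 and 6 left out together (0.73, adjusted p = 0.055). Within the 3 slides, Pou2af1 was higher than vehicle with medium-dose differences of 0.89, 0.61 and 0.62 and high-dose differences of 0.93, 0.44 and 0.82.

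Cr2 was close behind. By its brightest probe the log2 ratio was 4.26, 3.86, 4.65 and 4.83 in the low-dose mice, 5.42, 4.51, 4.68, 4.30 and 5.17 in the medium-dose mice and 5.06, 4.43, 4.08, 4.75 and 4.55 in the high-dose mice, against 3.14 to 4.59 in the vehicle mice. The groups overlapped, and the changes of 0.51, 0.92 and 0.68 had adjusted p-values of 0.60, 0.0586 and 0.117 by limma. The second, dimmer probe of Cr2 separated them. It read 0.77, 0.98, 0.70, 1.11 and 1.30 in the vehicle mice, 2.33, 1.79, 1.51, 1.97 and 2.47 in the medium-dose mice and 1.62, 1.71, 1.73, 2.16 and 2.09 in the high-dose mice, so that every mouse of both dose groups lay above every vehicle mouse. The changes of this probe were 1.04 (SE 0.18, adjusted p = 0.00442 by limma) at the medium dose and 0.89 (SE 0.18, adjusted p = 0.00432) at the high dose, both called. At the low dose the change was 0.77 with an adjusted p of 0.0742. The 2 probes thus differed in their calls but not in direction, and both carry the accession of the same transcript.

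Cd79a and Cd79b, the signalling chains of the receptor, were not called in lung at any dose. Cd79b read 0.44, 0.77, -0.02, 1.62 and 0.75 in the vehicle mice and 1.64, 1.31, 1.73, 1.65 and 1.76 in the medium-dose mice. In the low-dose mice it read 1.39, 0.45, 1.42 and 1.42, and in the high-dose mice 1.35, 0.81, 1.22, 1.82 and 1.43. Vehicle mouse 4 alone lay among the medium-dose values. The changes of Cd79b were 0.46, 0.90 (SE 0.24, adjusted p = 0.0544 by limma) and 0.61 (SE 0.24, adjusted p = 0.149) at the low, medium and high dose, and without mouse 4 Cd79b, Ms4a1 and Cr2 were called beside Pou2af1 at the medium dose. Cd79a read 0.90, 0.92, 0.45, 1.29 and 1.5 in the vehicle mice, 1.78, 1.45, 1.00, 1.76 and 2.21 with the medium dose, then 1.31, 0.82, 1.00, 1.90 and 1.64 with the high dose, with changes of 0.63 (adjusted p = 0.198 by limma) and 0.32 (adjusted p = 0.52). Cd79a also moved with the slide, from 0.45 to 1.62 on slides 1 and 2 and from 1.5 to 2.21 on slide 3, which held 3 of the 5 medium-dose lungs and 1 of the 5 vehicle lungs. Within slides 1, 2 and 3 the change of Cd79a was 0.54, 0.13 and 0.42 at the medium dose. At the high dose it was 0.16, 0.13 and 0.27, and with the slide as a block the changes were 0.39 (adjusted p = 0.302 by limma) and 0.19 (adjusted p = 0.603).

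For Ms4a1, the CD20 gene, the log2 ratios were -0.15, 0.48, 0.00, 1.33 and 0.38 in the vehicle mice and 1.30, 0.96, 1.30, 0.81 and 1.27 in the medium-dose mice, a change of 0.72 (SE 0.22, adjusted p = 0.11 by limma). Vehicle mouse 4 had the highest lung value of Ms4a1 of all 19 mice. The high-dose values of 0.36 to 0.98 lay within the vehicle range, with a change of 0.31 and an interval of -0.15 to 0.77. Fcrla read 2.15, 2.26, 1.53, 2.72 and 2.66 in the vehicle mice, 2.71, 2.97, 2.91, 3.00 and 3.42 with the medium dose, then 2.67, 2.97, 2.75, 3.45 and 2.91 with the high dose. At each of these doses 4 of 5 mice lay above all vehicle mice, and the changes were 0.74 (SE 0.22, adjusted p = 0.0994 by limma) and 0.69 (SE 0.22, adjusted p = 0.0769). When the mean of the 3 dose groups was set against vehicle, a comparison added after the data were seen, Fcrla (0.65, SE 0.19, adjusted p = 0.0472 by limma) and Pou2af1 (0.66, SE 0.14, adjusted p = 0.00845) were called, 2 of 9 members where 0.732% of all genes were.

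Cd22, the inhibitory lectin, was the only member with lower lung values at the higher doses. It read 0.87, 0.83, 0.80, 0.57 and 0.76 in the vehicle mice, 0.44, 0.47, 0.53, 0.63 and 0.52 with the medium dose, then 0.51, 0.41, 0.62, 0.30 and 0.41 with the high dose. At each dose 4 of 5 mice lay below all vehicle mice. The change was -0.25 (SE 0.09, adjusted p = 0.179 by limma) at the medium dose and -0.31 (SE 0.09, 95% interval -0.50 to -0.13, adjusted p = 0.0362) at the high dose. The latter passed the p threshold but at 1.24-fold not the fold threshold, and the same held for the trend (-0.35, adjusted p = 0.0192). With median centring in place of loess the change was -0.07 at the high dose, with an adjusted p of 0.811 by limma.

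Blk and Pax5 were near background in lung. The Blk probe exceeded background clearly on 1 of 5 arrays in the vehicle group, on 1 of 4 at 25, on 5 of 5 at 50 and on 4 of 5 at 100 mg/kg-bw/day, and the corresponding counts for Pax5 were 1, 2, 5 and 3. Their changes were 0.28 and 0.33 with the medium dose, and 0.30 and 0.13 with the high dose, with adjusted p-values between 0.157 and 0.744 by limma. Pax5 ranged from 0.07 to 0.58 on slides 1 and 2 and from 0.51 to 1.13 on slide 3, and with the slide as a block its changes were 0.15 and 0.04 (adjusted p = 0.592 and 0.90 by limma). The second probe of Pax5 was well above background on no lung array.

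Of the 9 members, 0 were called by limma with the low dose (0.433% of all genes), 1 with the medium dose (0.584%), 1 at the high dose (1.75%) and 1 in the trend (1.48%). The numbers with an unadjusted p under 0.05 were 2, 8 and 6 at the 3 doses, where 3740, 5972 and 7792 of all 37163 genes had one. The median change of the members was 0.31, 0.72 and 0.32 at the low, medium and high dose, where the median of all genes was 0.0011, -0.0012 and -0.0029, and 9, 8 and 8 of the 9 were higher than vehicle, Cd22 being the exception at both higher doses. Counted by any of its probes, Cr2 was called as well, which gave 2 of 9 at the medium dose against 0.638% of all genes and 2 of 9 at the high dose against 1.93%. With median centring the calls were 4 of 9 at the medium dose (0.926% of all genes) and 5 of 9 at the high dose (8.13%), and Cd79b, Ms4a1, Cr2 and Pou2af1 were among both.

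**Figure D2:**
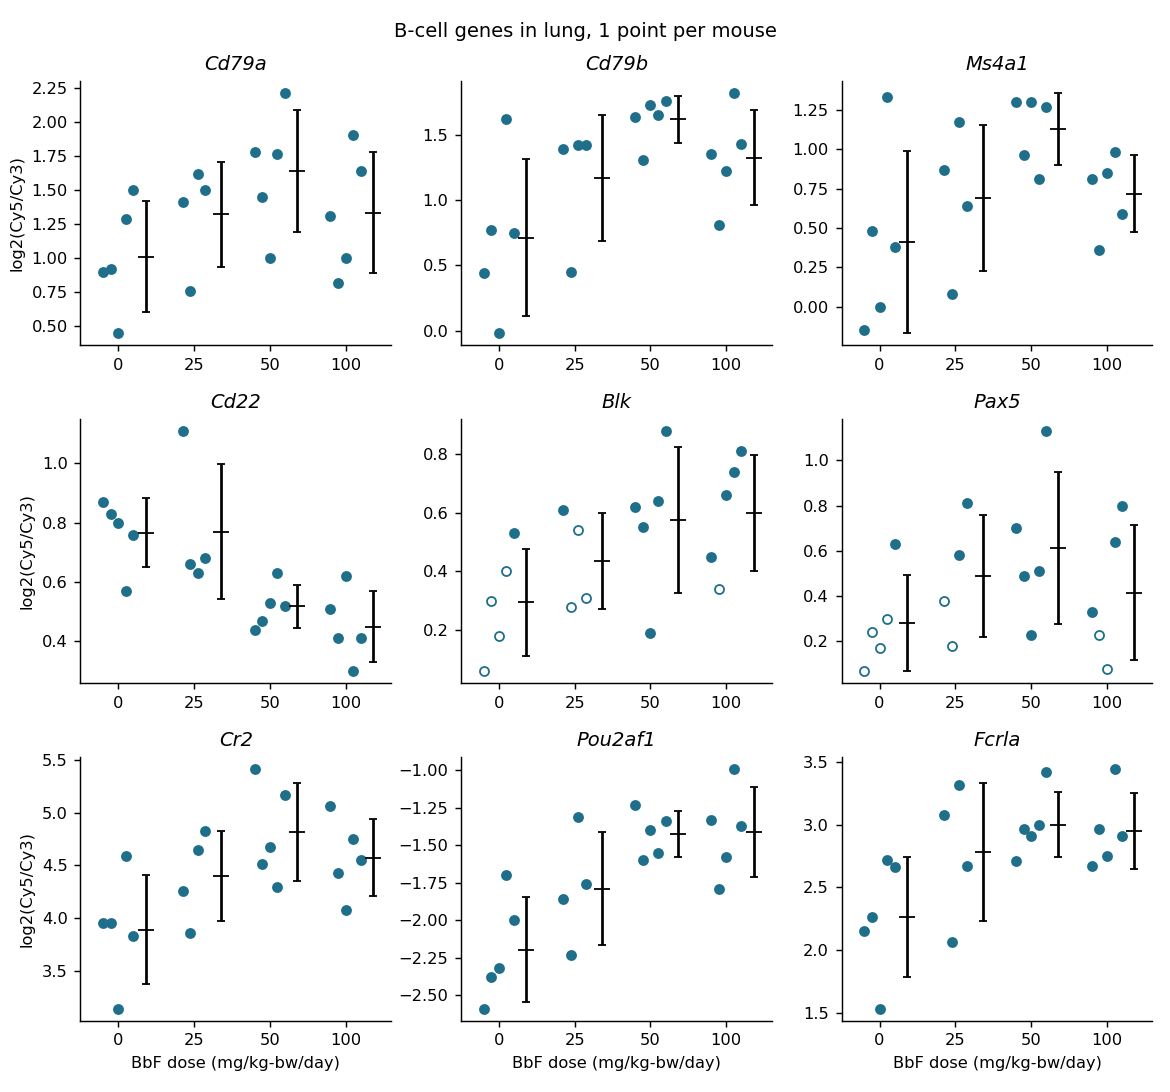
Log2(Cy5/Cy3) of each B-cell gene (panels, brightest probe) in lung against the BbF dose in mg/kg-bw/day, 1 point per mouse in order of mouse number; filled points are arrays on which the probe was well above background in Cy5, and bars are the mean and SD of 4 or 5 mice. The y axes differ between panels. The 5 medium-dose values of Pou2af1 lie between -1.60 and -1.23, all above the vehicle mice, and Cd22 runs the other way.

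The mice of a group differed in the B-cell genes as a set. The mean log2 ratio over the 9 genes was 0.63, 0.82, 0.44, 1.23 and 1.00 in vehicle mice 1 to 5, and 1.25, 0.68, 1.40 and 1.23 in the low-dose mice. It was 1.49, 1.23, 1.24, 1.31 and 1.67 in the medium-dose mice and 1.24, 0.95, 1.08, 1.51 and 1.31 in the high-dose mice. Vehicle mice 1 and 3 and low-dose mouse 8 were each among the 5 lowest lungs for 8 of the 9 genes. Medium-dose mouse 15 was among the 5 highest for 8 genes and high-dose mouse 19 for 7, and mouse 19 had the lowest Cd22 of all lungs. The means share the array, its labelling and its normalization with each gene. Vehicle and exposed lungs overlapped. Vehicle mouse 4 (1.23) was level with medium-dose mouse 12 and above high-dose mice 17 and 18. Vehicle mouse 5 (1.00) lay above high-dose mouse 17 (0.95), and vehicle mice 2, 4 and 5 lay above low-dose mouse 8 (0.68).

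**Figure D3:**
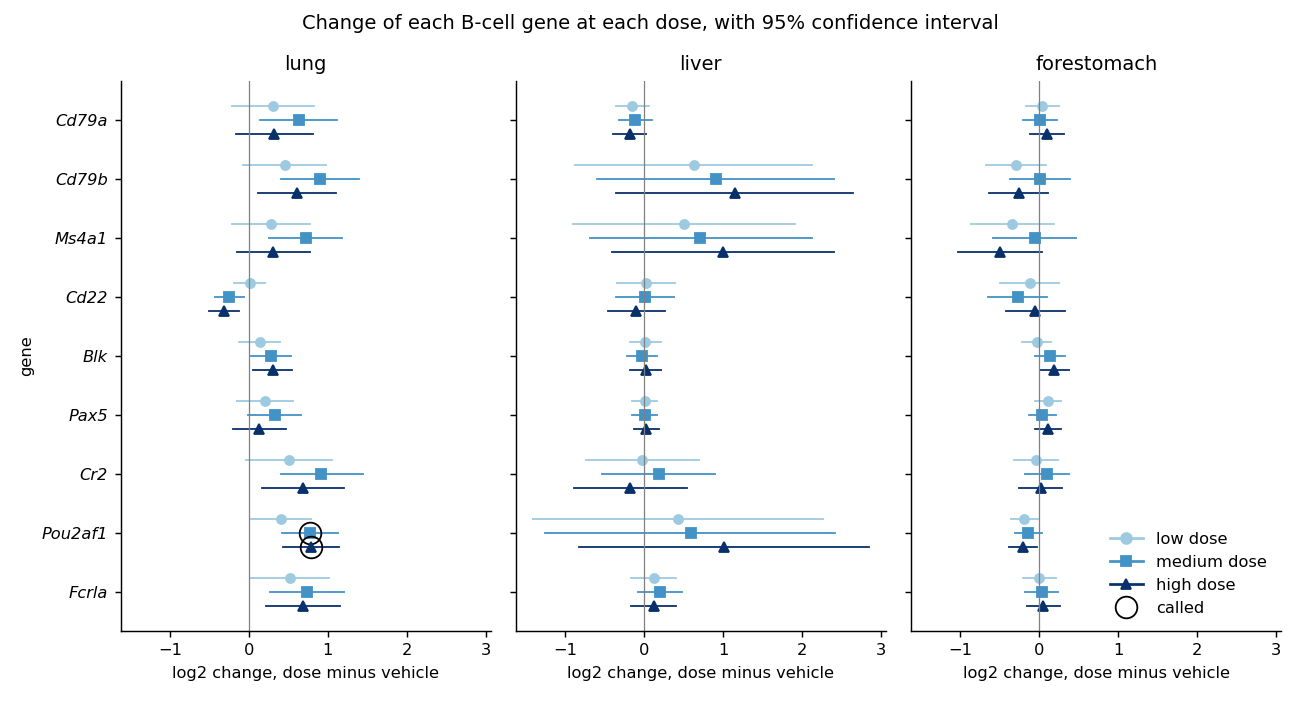
Log2 change from vehicle (x axis) of each B-cell gene at the low, medium and high dose in lung, liver and forestomach, with 95% confidence intervals from limma; circles mark changes that were called. Only Pou2af1 in lung is circled, and the widest intervals are those of Cd79b, Ms4a1 and Pou2af1 in liver.

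In liver no member was called by limma at any dose or in the trend. Of all genes, 0% were called at 25, 0% at 50 and 0.00538% at 100 mg/kg-bw/day and 0.0135% in the trend, and no member had an unadjusted p under 0.05. The largest changes at the high dose, 1.15 for Cd79b, 1.01 for Pou2af1 and 1.00 for Ms4a1, had SEs of 0.72, 0.87 and 0.67. They followed the slide. On slides 1 and 2 Cd79b ranged from -3.51 to -2.60 over 12 mice, and on slide 3 from -0.94 to -0.59 over 8 mice. For Pou2af1 the ranges were -3.90 to -3.48 and -1.26 to -0.68, and for Ms4a1 they were -3.03 to -2.29 and -0.52 to -0.32, with no overlap. Slide 3 held 3 mice of the high dose, 2 each of the medium and low dose and 1 vehicle mouse, and none of the 9 genes was well above background on any of its arrays.

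Without slide 3 the liver changes at the high dose were 0.23 for Cd79b, -0.16 for Pou2af1 and 0.18 for Ms4a1. Cr2 was then higher at the medium dose (0.43, SE 0.09, adjusted p = 0.047 by limma) and the high dose (0.47, SE 0.11, adjusted p = 0.0444), below 1.5-fold. Its log2 ratio on those slides was 0.58, 0.71, 0.43 and 0.63 in vehicle mice 1 to 4, 1.08, 0.96 and 1.01 in medium-dose mice 12 to 14 and 0.93 and 1.17 in high-dose mice 16 and 17, with no overlap between vehicle and either dose. Cd79a, Pax5 and Fcrla were well above background on no liver array, and Blk on 1 of 20.

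**Figure D4:**
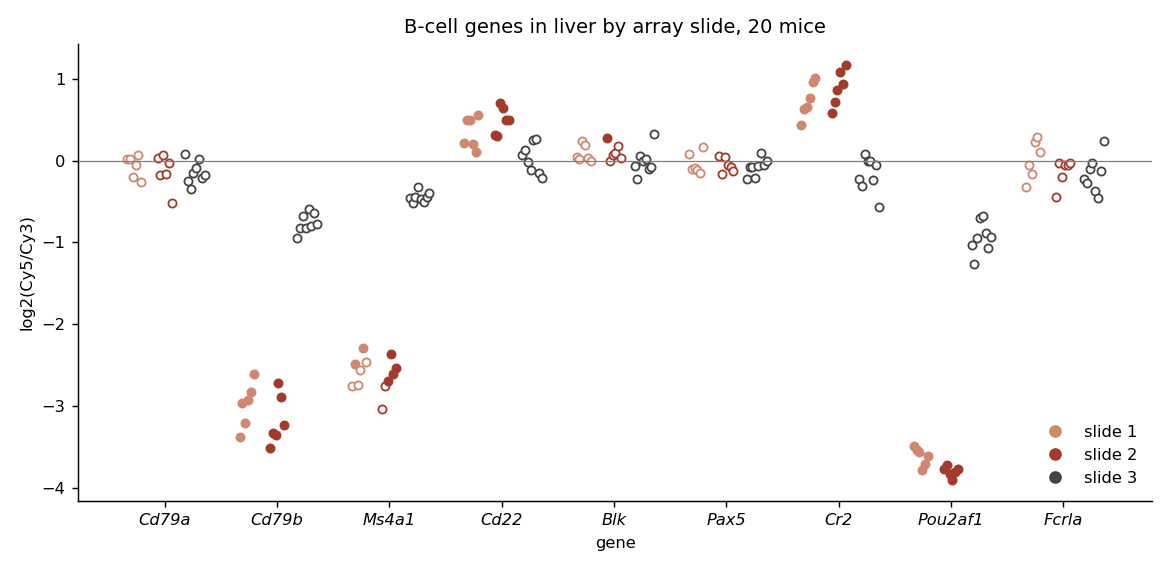
Log2(Cy5/Cy3) of the 9 B-cell genes (x axis) in liver, 1 point per mouse, by array slide (6, 6 and 8 arrays); filled points are arrays on which the probe was well above background in Cy5. On slide 3 all points are open, and Cd79b, Ms4a1 and Pou2af1 lie nearer to 0 than on slides 1 and 2.

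In forestomach, the first of these tissues that a gavaged compound reaches, no member was called by limma at any dose or in the trend, while 0% of all genes were called at 25, 0% at 50 and 0.0996% at 100 mg/kg-bw/day and 0.0861% in the trend. Pou2af1 read -3.60, -3.57, -3.58, -3.39 and -3.60 in the vehicle mice and -3.84, -3.70, -3.64, -3.70 and -3.88 in the high-dose mice. All high-dose values lay below all vehicle values, but the change was -0.20 (SE 0.08, 95% interval -0.38 to -0.03, adjusted p = 0.462 by limma). By the brightest probes, Blk (0.19) was the other member with an unadjusted p under 0.05 at the high dose. It was well above background on no forestomach array, like Cd79a, Pax5 and Fcrla. The second probes of Pax5 (-0.29) and Cr2 (-0.17) also had an unadjusted p under 0.05 by limma, where the brightest probes gave 0.11 and 0.02. Neither second probe was well above background on any forestomach array. Cd79b was at -4.15 to -3.75 at the high dose and -4.03 to -3.37 in vehicle, Cr2 at 0.01 to 0.27 and -0.16 to 0.42, and Cd22 at 0.38 to 0.98 and 0.26 to 1.16, so that these ranges overlapped.

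Whether the high-dose change differed between tissues was tested directly. For Pou2af1 the change in lung exceeded that in forestomach by 0.99 (SE 0.20, 95% interval 0.59 to 1.40, adjusted p = 0.00492 by limma), the only member called of 9, where 0.92% of all genes were called. The call remained without each mouse in turn (0.90 to 1.10) and with the mouse as a block (0.99, adjusted p = 0.0239). Cd79b (0.88), Ms4a1 (0.81), Cr2 (0.66) and Fcrla (0.64) had intervals above 0 and adjusted p-values of 0.231 to 0.404 by limma. The second Cr2 probe was also called (1.06, adjusted p = 0.00416 by limma). The second Pax5 probe was at 0.40 (adjusted p = 0.301 by limma) and the brightest at 0.02, neither of them called. Between lung and liver no member was called by its brightest probe or had an unadjusted p under 0.05 (0.387% of all genes called), the second Cr2 probe was (1.07, adjusted p = 0.0161), and the difference for Pou2af1 was -0.22 with an SE of 0.92. With the slide as a block it was 0.83 and called, and with median centring 1.57 and called. Between liver and forestomach no member was called by limma or had an unadjusted p under 0.05 (0.0377% of all genes called).

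Other genes of the B-cell pathway gave further calls in lung. Among 19 genes of receptor signalling, Rasgrp3 was called higher at the high dose, where 1.24% of all genes were. Rasgrp3, an activator of Ras downstream of the receptor, rose by 0.70 (SE 0.12, adjusted p = 0.0012 by limma), with 2.88 to 3.53 in the high-dose mice and 2.23 to 2.55 in vehicle. The median change of this list was 0.18, 0.25 and 0.16 at the 3 doses.

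Of 15 genes of the B-cell surface and of homing, Ccr7 was called at the medium dose (0.90, adjusted p = 0.0108 by limma) and Cxcr5 and Ccr7 at the high dose, all higher. Cxcr5, the receptor that guides B cells into follicles, read 1.72, 2.21, 1.41, 2.43 and 2.84 in the vehicle mice and 3.53, 2.90, 3.17, 3.69 and 3.95 in the high-dose mice, with no overlap, a change of 1.33 (SE 0.32, adjusted p = 0.0135). Ccr7, which T cells and dendritic cells share with B cells, rose by 1.2 (SE 0.18, adjusted p = 0.000296), with 4.18 to 4.73 at the high dose and 2.92 to 3.61 in vehicle. None of 12 B-cell transcription factors, 7 plasma cell and antibody genes on the array (of 11 listed) or 6 genes of precursor B cells was called in lung at any dose by limma, with 5, 4 and 2 of them at an unadjusted p under 0.05 at the high dose, where 7792 of all 37163 genes had one. Their median changes at the high dose were 0.07, -0.07 and -0.02. For the high-dose change between tissues, 2 genes of these lists were called by limma. Bach2, a B-cell transcription factor, was called in lung against forestomach (0.8, adjusted p = 0.0379). Its lung values were 1.34 to 1.58 at the high dose and 0.86 to 1.33 in vehicle. Xbp1, of the plasma cell list, was called in lung against liver (-1.08, adjusted p = 0.00335). In lung it read 0.10 to 0.44 at the high dose and 0.55 to 1.08 in vehicle.

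Markers of other cells moved as well. At the medium dose 11 of 12 T-cell genes and 4 of 4 genes of all leukocytes were higher than vehicle, with medians of 0.26 and 0.36. None was called by limma, and 3 in each list were at an unadjusted p under 0.05, where 5972 of all 37163 genes were. The mean log2 ratio of the T-cell list ranged from -0.12 to 0.69 in the vehicle mice and from 0.30 to 0.53 in the medium-dose mice. For the leukocyte list the ranges were 0.12 to 0.87 and 0.79 to 1.08. Of 10 MHC class II genes, H2-DMb2 was called higher at the medium dose (0.65, adjusted p = 0.0404), where 0.455% of all genes were called higher. None was called at the high dose, where 2 of them and 7792 of all 37163 genes had an unadjusted p under 0.05. Of 7 NK-cell genes 3 were called lower at the high dose, Ncr1 (-0.74), Klrb1c (-0.75) and Gzma (-2.69), and 0 of 7 were higher than vehicle. Of all genes, 0.509% were called lower and 1.24% higher at that dose. S100a8, a neutrophil gene, and Marco, a macrophage receptor, were called higher at the high dose (1.2 and 1.30), while the medians of their lists were 0.47 over 5 genes and -0.11 over 6 genes. None of 6 dendritic-cell genes was called by limma, with 1 at an unadjusted p under 0.05. The exposure genes Cyp1a1 and Cyp1b1 were both called at the high dose, with changes of 4.47 and 4.44. The high-dose mice were uneven in Cyp1b1, with 1.03 and 0.67 in mice 16 and 18 and 4.95 to 5.01 in mice 17, 19 and 20. The part of the other cell types in the B-cell gene values was not tested.

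**Figure D5:**
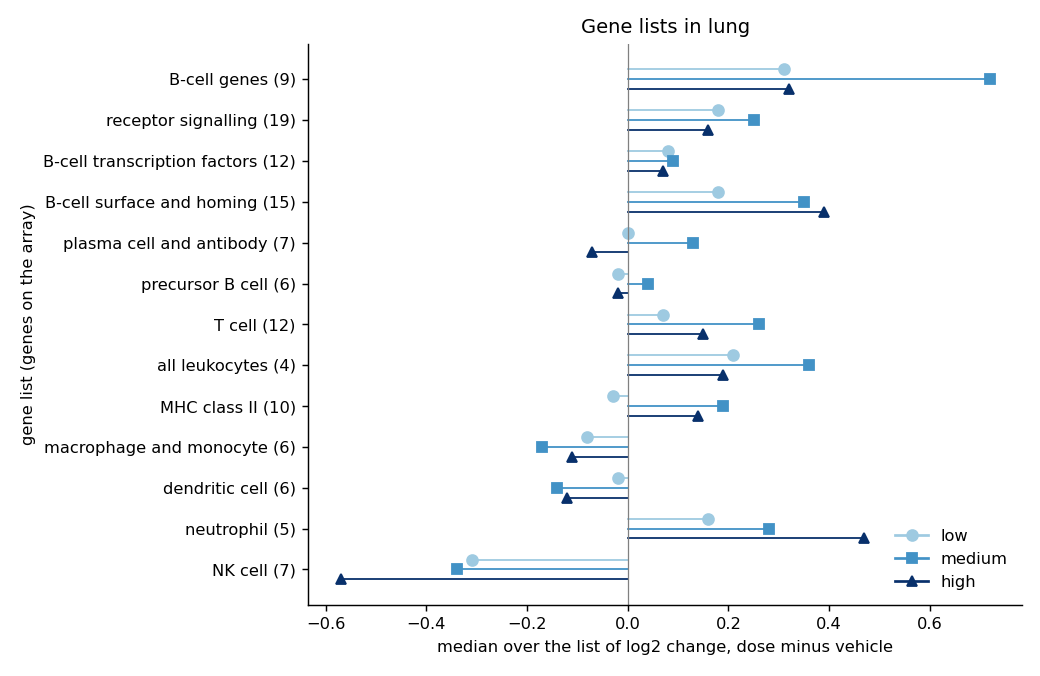
Median log2 change from vehicle in lung (x axis) over the genes of each list (y axis, with the number of genes on the array) at the low, medium and high dose. The 9 B-cell genes have the largest median at the medium dose (0.72), and the NK-cell list is the lowest at the high dose (-0.57).

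The genes outside the B-cell lists whose lung values ran most like the mean of the 9 members were sought among 17834 genes that were well above background on every lung array. Over 19 arrays these were H2-Ob, Gpr174 and H2-Oa (Pearson r of 0.92 each, Spearman rho of 0.89, 0.88 and 0.89), a transcript listed as ENSMUST00000103426 (0.91 and 0.87) and Tlr1 (0.91 and 0.79). H2-Ob and H2-Oa encode the chains of a class II peptide-loading regulator found in B cells, Gpr174 a receptor of lymphocytes and Tlr1 a sensor of bacterial lipoproteins. They were picked for a high r, so no test is given, and the arrays share labelling and normalization.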

How the data were processed

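The authors hybridized Cy5-labelled RNA of lung, liver and forestomach with Cy3-labelled universal mouse reference RNA to Agilent 2-colour arrays, with no dye swap. The deposited scanner files hold the median intensity of each spot per the file headers (Feature Extraction 10.7.3.1). The authors also deposited processed log2 ratios of the same arrays, used as an alternative (r of 0.967 to 0.999 with the values used here).

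Log2(Cy5/Cy3) was computed without background correction, as in the study's methods, and normalized by loess within each array in limma 3.58.1 (R 4.3.3), with control spots and 518 non-uniform spots left out. Repeated spots were averaged, giving 55681 probes with 484 missing values. Symbols came from a RefSeq table (GRCm38.p6) by accession: 20018 symbols were assigned to 26413 probes, and 29268 probes kept the name in the array files. The array files state another assembly (mm9), so no probe coordinates are given.

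Each dose was tested against vehicle within a tissue by limma (lmFit, eBayes, 2-sided, 4 groups in 1 fit), with Benjamini-Hochberg adjustment over all probes and the study's thresholds. A slope over dose, the tissues of vehicle mice and the difference of high-dose changes between tissues were tested likewise. The study's MAANOVA test was not run. The scripts were tested on simulated data. The members and gene lists were chosen with earlier results of these data known. All members were named, other list genes where called (1 item is not reported here), and the 5 genes most like the members' mean in lung. Alternatives were median centring, normexp background correction (offset 50), the authors' values, the slide as a block, a filter on dim probes, any probe of a gene, each mouse left out, liver without its slide 3 and the mouse as a block. Where probes of a gene differed in a call at a dose or for the high-dose change between tissues, both are given. P-values measure the spread between the arrays of a group, which holds differences of slide as well as of mouse. The main fits had no term for the slide or, between tissues, for the mouse.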

Additional observations from a re-analysis of the deposited data

Results flagged for a closer look

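Within-group outliers by Dixon's test were sought in 108 combinations of gene and group, and 9 (8.33%) stood out, where chance gives about 1 in 20. In lung these were Cd79b in low-dose mouse 8 (0.45, others 1.39 to 1.42) and medium-dose mouse 12 (1.31, others 1.64 to 1.76), and Cd22 in low-dose mouse 6 (1.11, others 0.63 to 0.68), whose array also had Krt13 at 4.17. In liver, vehicle mouse 5 stood apart for Cd79b (-0.94), Ms4a1 (-0.46) and Pou2af1 (-1.03), where the other vehicle livers were at -3.51 to -2.96, -3.03 to -2.48 and -3.77 to -3.48. That array is on the dim slide 3, on which all other arrays had ratios in the same range. Cd79a in liver of vehicle mouse 2 (-0.17, others 0.02 to 0.08) and Pax5 in liver of low-dose mouse 7 (0.04, others -0.12 to -0.08) were values of probes that no array of the group had well above background. In forestomach, Pou2af1 in vehicle mouse 4 was at -3.39, with the others at -3.60 to -3.57.

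The high-dose change of Pou2af1 differed between lung and forestomach by 0.99 (adjusted p = 0.00492 by limma). It was 0.79 in lung and -0.20 in forestomach.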

How the results depend on the processing

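Counts of members called were recomputed under each alternative. Apart from runs that left out a mouse, 106 counts stayed within 1.5 times, 12 rose and 1 fell. The 106 include counts of 0 that stayed at 0, as for every dose and the trend in liver and forestomach. In lung at the medium dose, 1 member was called at first, 2 when any probe counted, 3 without dim probes, 4 with median centring and 0 without the lung arrays of mice 2 and 6 (added after the data were seen). At the high dose it was 2 when any probe counted, 2 without dim probes and 5 with median centring. The lung trend gave 2 by any probe and 5 with median centring. For the high-dose change, lung against forestomach gave 2 by any probe, and lung against liver gave 1 by any probe, 1 with median centring and 1 with the slide as a block. In the last of these Pou2af1 turned from -0.22 to 0.83, and to 1.57 with median centring. The cause was not tested. Median centring shifted all genes too: 99.0% of lung calls at the high dose were then higher, against 71.0% with loess, and 98.5% against 77.9% at the medium dose, and the median of all genes in lung against liver moved to 0.20, in liver against forestomach to -0.19 and in liver at the high dose to -0.12. Cd22 in lung was then at -0.09 and -0.07 at the medium and high dose. Without each mouse in turn the lung count was 0 to 4 at the medium and 1 to 4 at the high dose, 1 in the trend and 0 at the low dose. In vehicle mice it was 5 to 6 between lung and liver, 5 to 6 between lung and forestomach and 0 to 1 between liver and forestomach. In liver and forestomach it stayed at 0 for every dose and the trend. For tissues of one animal, the mouse as a replicate block gave 5 (lung against liver), 6 (lung against forestomach) and 0 calls (liver against forestomach) in vehicle mice and 0, 1 and 0 for the high-dose change, and the members called were the same by name as without the block. No paired analysis was possible for the doses because the dose groups hold different mice. The dim liver slide 3 limits every liver value.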
